A study of Mus musculus with 6 samples.

Results

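The extracellular matrix genes described here encode collagens, laminins, nidogens, fibrillins, fibulins, integrins, thrombospondins, matrix metalloproteinases (Mmp) and their tissue inhibitors (Timp). They were chosen by symbol alone, as every gene of the deposited table whose symbol follows the naming of these families, which gave 92 of the 13886 genes. The libraries were made from female mice of the genotype Kiss1Cre+/Rpl22HA+/+ (KissRibo), in which Cre driven from *Kiss1* puts an HA tag on the ribosomal protein Rpl22, so that ribosomes of *Kiss1* cells can be immunoprecipitated (IP) with their mRNA. Ovariectomy (OVX) was done at an age of 8 weeks in every female, which was then pre-treated with estradiol (E2) for 4 days and left without E2 for 7 days. Of the 6 IP samples, 3 came from OVX females given no further E2 and 3 from OVX females then given E2 for 5 days. Each sample was 1 pool of medial amygdala (MeA) punches from 4 brains. The comparison asks whether these transcripts differ with E2 in the RNA recovered from MeA *Kiss1* cells.

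Collagens are triple helices of 3 alpha chains, and different families form fibrils, basement membrane sheets, beaded filaments or membrane-anchored molecules. Laminins and collagen IV make up basement membranes, which nidogens bridge and which in the brain surround blood vessels and line the meninges. Integrins are receptors of 1 alpha and 1 beta subunit that bind matrix from the cell surface, thrombospondins are secreted glycoproteins known for their role in synapse formation, Mmp enzymes cleave matrix and surface proteins, and Timp proteins inhibit them.

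Levels are the authors' log2 CPM, read counts scaled to a common library total, in which a difference of 1 is a doubling. Depth was similar, at a scaled size of 28.1M to 34.2M reads per OVX library and 30.3M to 34.0M per E2 library. *Kiss1* itself (ENSMUSG00000115958) was 1.13 to 2.29 in the OVX and 3.45 to 3.80 in the E2 libraries. Neuronal markers summed to 6402 to 6714 CPM over all libraries, and 5 of 8 had a higher mean with E2. Astrocyte markers summed to 1691 to 2105 CPM in OVX and 1846 to 2217 CPM in E2 libraries, and 8 of 8 had a higher mean with E2. Several cell types that make matrix were also represented. The 12 endothelial markers, all of them listed, summed to between 154 and 320 CPM in OVX and between 195 and 257 CPM in E2 libraries, and the 10 mural (vessel wall) markers to between 147 and 255 and between 172 and 222 CPM. The fibroblast and meningeal markers, 10 of 12 listed with *Lum* and *Aspn* not among them, summed to between 236 and 432 CPM in OVX and between 246 and 397 CPM in E2 libraries. A higher mean with E2 was seen for 10 of 12 endothelial, 8 of 10 mural and 6 of 10 listed fibroblast and meningeal markers. OVX replicate 2 was the highest of the 6 libraries in each of these 3 sums. It also had 1029 CPM of anterior pituitary hormone transcripts (3 of 7 markers listed), against 2.02 to 228 CPM in the others. It was the highest library for 25 of the 92 matrix genes (27.2%) and for 16.2% of all genes. The summed level of 4 erythroid markers (*Hbb-bs* was not listed) was 121 to 228 CPM in OVX and 280 to 447 CPM in E2 libraries, so that the groups did not overlap, and 2 of the 4 were past the threshold used below. Choroid plexus markers (7 of 7 listed) summed to 691 to 1083 CPM in OVX and 397 to 1019 CPM in E2 libraries, and 0 of 7 had a higher mean with E2. Genes taken as markers of excitatory neurons of forebrain areas other than the MeA (6 of 6 listed) also did not overlap in their sum. It was 1115 to 1385 CPM in OVX and 850 to 1102 CPM in E2 libraries, and 0 of 6 had a higher mean with E2. The highest of the 6 was *Slc17a7* (*Vglut1*), with a mean of 9.47 log2 CPM. The authors also name this gene among transcripts of MeA *Kiss1* cells, and the origin of the sum was not tested. The part of these cell types in the results was not tested. In pooled tissue of this kind, a difference in the number of cells of a type and a difference in RNA per cell cannot be told apart.

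**Figure D1:**
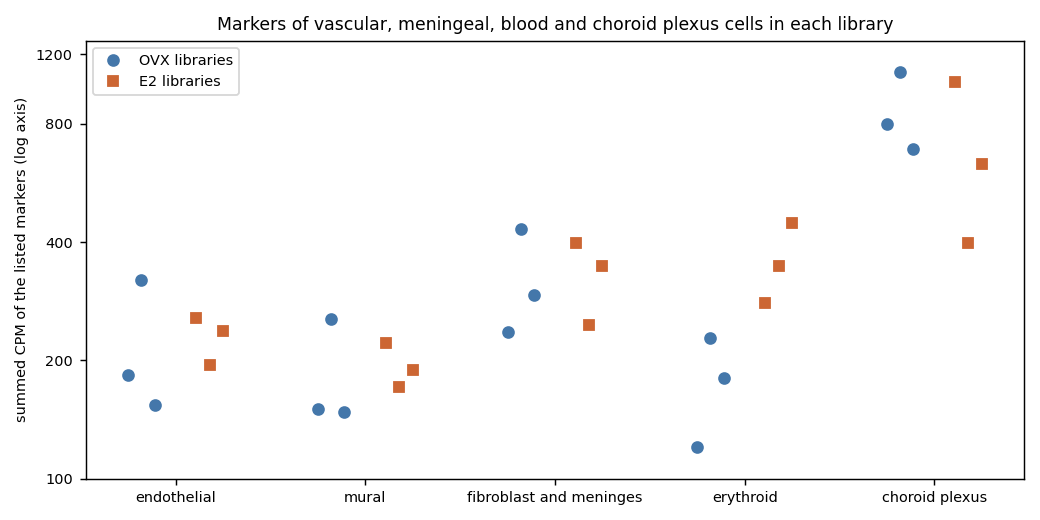
Summed CPM (log axis) of the listed markers of endothelial, mural, fibroblast and meningeal, erythroid and choroid plexus cells, with 1 point per library, OVX as circles and E2 as squares, replicates 1 to 3 from left. The erythroid sum is higher in each E2 library (280 to 447 CPM) than in any OVX library (121 to 228 CPM), and OVX replicate 2 is the highest library for the first 3 sums.

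Most of the 92 genes were low. Their median level was 2.70 against 4.76 log2 CPM for all genes, 19 of them stood above the median of all genes, and the highest, *Timp2*, ranked 110 in the table. In all 6 libraries, 85 of the 92 had a CPM above 1. The spread between libraries of one group was wider, with a median SD of 0.26 against 0.13 for all genes. A further 19 protein-coding symbols of these families, among them *Timp1*, *Mmp3*, *Mmp12*, *Col10a1*, *Itga2* and *Itgb7*, were not in the table, and their levels are not known from it. Because the libraries were not stranded, exonic bases shared with another gene make a count uncertain. That held for 31 members, and in 5 the shared part was over 10% of the exonic bases: *Itga10* (33.5%), *Timp3* (21.3%, with *Syn3*), *Fbn1* (20.1%), *Mmp24* (13.6%) and *Mmp28* (12%).

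Per kilobase of the longest transcript, which is the scale on which different genes can be set side by side, *Timp2*, an inhibitor that also takes part in the activation of Mmp2, stood first at 7.85. It was above the next gene in 6 of 6 libraries, by 3.13. The next were *Mmp17*, a membrane-anchored protease, at 4.72 and *Col6a1*, a chain of the beaded filament collagen VI, at 4.70, and neither was above the other in more than 3 of the 6 libraries. *Timp3* (3.94) and *Col25a1* (3.94) likewise changed places between libraries, as did *Col4a2* (3.69) and *Col9a3* (3.59). *Itgb1*, the shared beta subunit of most matrix-binding integrins, was at 3.45, above *Col4a1* (3.05) in 6 of 6 libraries. *Mmp24*, a membrane-type protease made by neurons, was at 3.03, and *Thbs3* (2.94) and *Lamb1* (2.75) came next. The lowest were *Col17a1*, *Col4a3* and *Col4a4*, at -2.26, -2.27 and -2.48.

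**Figure D2:**
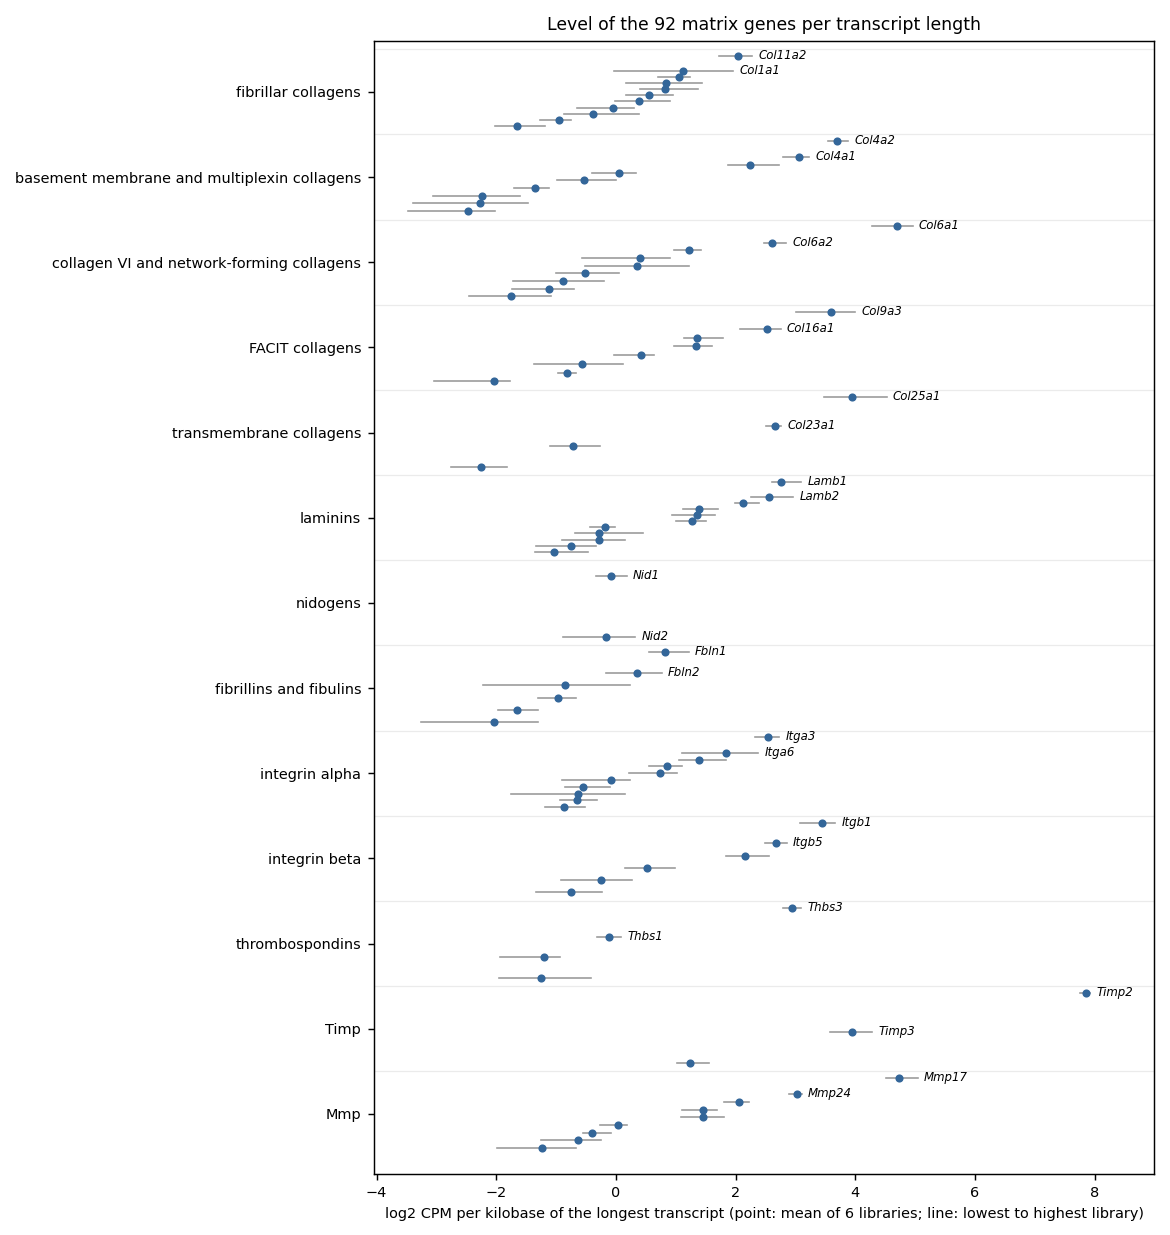
Mean log2 CPM per kilobase of the longest transcript (horizontal axis) for the 92 genes by family, with a line from the lowest to the highest of the 6 libraries and names for the 2 highest in each family. *Timp2* stands apart at 7.85, and the other families overlap between 4.72 and -2.48.

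Between treatments, 3 of the 92 genes passed an adjusted p of 0.05 (limma on the log2 CPM, two-sided, Benjamini-Hochberg adjustment over all 13886 genes). That was 3.26% of the members, where 0.288% of all genes were called. All 3 were collagens and higher with E2, a direction in which 0.23% of all genes were called, and 0 members were called lower, with 0.0576% of all genes. At an unadjusted p under 0.05 there were 13 members (8.56% of all genes), 9 of them higher (4.21%) and 4 lower (4.34%). The OVX and E2 libraries did not overlap in 16 members (13.7% of all genes), 10 higher (6.85%) and 6 lower (6.82%). Over the 92 genes the differences had a median of 0.01, beside 0.00 for the whole table. The median SE of a member was 0.22, against 0.11 for all genes, and a call took a difference of several SE. *Col1a1*, at 1.18 with an SE of 0.22, only just passed (adjusted p = 0.047 by limma). *Col8a1*, at 0.98 with an SE of 0.28, did not (adjusted p = 0.279). Changes well above the SE could therefore be missed in most of these genes.

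**Figure D3:**
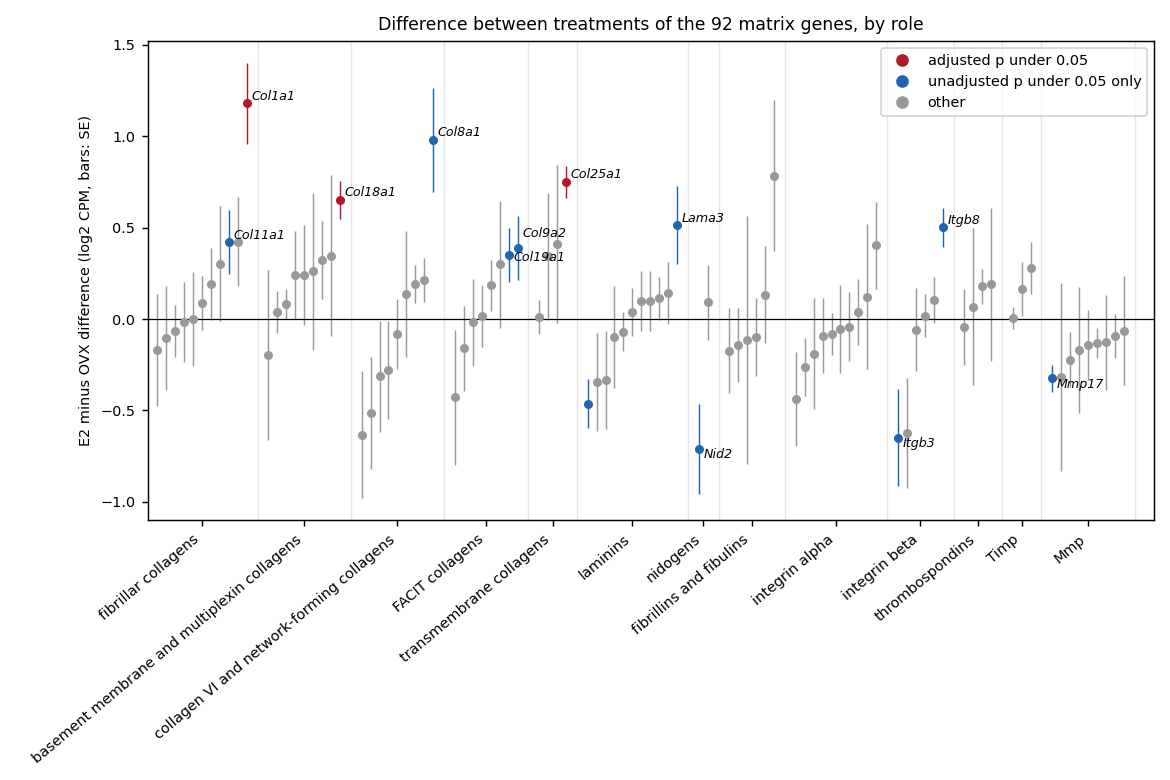
E2 minus OVX difference in log2 CPM (vertical axis, bars: SE) for each of the 92 genes, grouped by family on the horizontal axis and sorted within it. The 3 called genes, *Col25a1*, *Col18a1* and *Col1a1*, are at 0.75, 0.65 and 1.18, and all 9 Mmp genes lie below 0.

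*Col25a1* (ENSMUSG00000058897, GRCm38 chromosome 3, 130131501 to 130599877, plus strand) encodes a transmembrane collagen made by neurons and known as a component of amyloid plaques and for its role in motor innervation. Its log2 CPM was 6.30, 6.41 and 6.23 in OVX replicates 1, 2 and 3, and 7.27, 7.01 and 6.90 in E2 replicates 1, 2 and 3. The lowest E2 library was above the highest OVX library. The difference was 0.75 (SE 0.09, adjusted p = 0.0013 by limma), which is 1.68-fold higher with E2, and the call was kept in 6 of 6 fits that each left out 1 library, with adjusted p between 0.0015 and 0.010. Without OVX replicate 2, the difference was 0.80. Among the other transmembrane collagens, *Col23a1* was 5.15 ± 0.13 in OVX and 5.16 ± 0.09 in E2 (SD, n = 3), and *Col13a1* and *Col17a1* were low, with means over the 6 libraries of 0.94 and 0.22.

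*Col18a1* (ENSMUSG00000001435, chromosome 10, 77052178 to 77166548, minus strand) encodes collagen XVIII, a basement membrane proteoglycan whose C-terminal fragment is endostatin. The OVX libraries had 4.48, 4.35 and 4.38 log2 CPM, and the E2 libraries 5.09, 5.20 and 4.87. Again no E2 library fell within the OVX range. The difference was 0.65 (SE 0.10, adjusted p = 0.018 by limma), or 1.57-fold. It was 0.63 (adjusted p = 0.037) without OVX replicate 2, and the call was lost without OVX replicate 3 (adjusted p = 0.054), E2 replicate 1 (0.082) or E2 replicate 2 (0.117), with a difference of at least 0.58 in each case.

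The sequences before the transcript starts of these 2 genes are shown because they are the called members matched in the promoter table of RefSeq (GRCm38.p6), in which 65 of the 92 genes were found. The part that lies outside all annotated exons is printed, on the gene's strand, with GC boxes (GGGCGG or CCGCCC) and CCAAT boxes (CCAAT or ATTGG) in capitals. The *Col25a1* stretch, chr3:130180595-130180844, lies inside the span of the longer *Col25a1* gene model, in 0 exonic bases, and the *Col18a1* stretch, chr10:77166549-77166780 on the minus strand, lies in no annotated gene. *Col18a1* has a second start there, at 77113705, whose window held 9 bases before an annotated exon and is not printed. Which of the 2 starts the *Col18a1* reads came from was not tested.
Col25a1: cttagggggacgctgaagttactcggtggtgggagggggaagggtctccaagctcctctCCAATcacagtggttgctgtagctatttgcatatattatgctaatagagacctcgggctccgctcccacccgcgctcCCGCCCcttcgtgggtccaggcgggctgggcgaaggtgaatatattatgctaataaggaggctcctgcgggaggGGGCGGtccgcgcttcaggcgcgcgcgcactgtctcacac
Col18a1: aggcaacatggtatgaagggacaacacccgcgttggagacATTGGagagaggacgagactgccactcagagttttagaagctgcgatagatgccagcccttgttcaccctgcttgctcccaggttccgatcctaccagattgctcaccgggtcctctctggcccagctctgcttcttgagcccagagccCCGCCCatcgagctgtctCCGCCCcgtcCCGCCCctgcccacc
The *Col25a1* stretch held 2 GC boxes and 1 CCAAT box, and the *Col18a1* stretch 3 and 1. The estrogen receptor half-site (GGTCA or TGACC) occurred in neither. Over the 250 bases before the start, 41 of the 65 matched members had a GC box (63.1%, against 35.4% of 27025 genes), 22 had a CCAAT box (33.8% against 37.5%) and 19 had the half-site (29.2% against 38.4%). The 27025 genes were not limited to genes with a deposited level, as the members were. A set limited in that way was not compared, so the percentages do not set members beside other expressed genes. The boxes and half-sites are letter matches on either strand, some of which can overlap, and not binding sites.

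*Col1a1* (ENSMUSG00000001506, chromosome 11, 94936224 to 94953042, plus strand) encodes the alpha 1 chain of collagen I, the main fibril collagen of connective tissue. It had 2.53, 3.62 and 3.15 log2 CPM in the OVX and 4.25, 4.06 and 4.53 in the E2 libraries. The groups did not overlap, although the OVX libraries were widely spread (SD 0.55). The difference of 1.18 (SE 0.22, adjusted p = 0.047 by limma), or 2.27-fold, was the largest among the 92 genes. Without OVX replicate 2 it was 1.44 (adjusted p = 0.004), and without any 1 of the other 5 libraries it was between 0.90 and 1.29 and no longer passed (adjusted p from 0.099 to 0.129).

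For the genes whose products assemble with Col1a1, the OVX and E2 libraries overlapped. *Col1a2*, the other chain of collagen I, had 2.58, 3.86 and 3.32 log2 CPM in the OVX and 3.53, 3.13 and 3.10 in the E2 libraries, with a difference of 0.00. *Col3a1*, whose product co-assembles with collagen I in soft tissue, had 1.61, 2.86 and 2.07 in the OVX and 2.32, 2.03 and 1.68 in the E2 libraries. In the OVX group all 3 genes were lowest in replicate 1 and highest in replicate 2. Each E2 library was above the OVX range for *Col1a1*, and within it for *Col1a2* and *Col3a1*. OVX replicate 2 also had the highest vascular and meningeal marker sums, and the part of these cells was not tested. Within a library, where scaling cancels, the log2 ratio of *Col1a1* to *Col1a2* was -0.05, -0.24 and -0.16 in OVX replicates 1, 2 and 3, and 0.72, 0.94 and 1.43 in E2 replicates 1, 2 and 3. The mean ratio was 1.18 higher with E2. The exact two-sided permutation p was 0.1, the smallest that 3 against 3 libraries can give, and 0.18 after adjustment over the 9 pairs of related genes compared in this way. These pairs were chosen with the levels known. The ratio of *Col1a1* to *Col3a1* was 1.35 higher with E2, also without overlap.

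For the chains of collagens IV and VI the ratios overlapped between groups. *Col4a1* and *Col4a2*, which encode the chains of the common collagen IV and start 21 bases apart on opposite strands, had a mean log2 ratio of -0.58 ± 0.18 in OVX and -0.62 ± 0.10 in E2 (SD, n = 3; exact permutation p = 0.8). *Col6a1* and *Col6a2* had 1.90 ± 0.32 and 1.92 ± 0.03 (exact permutation p = 0.9). The ratio of *Col8a1* to *Col8a2* did not overlap. These are genes of a network-forming collagen of vessels and cornea, and the ratio ran from -1.19 to 0.14 in OVX and from 0.56 to 1.41 in E2 libraries.

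**Figure D4:**
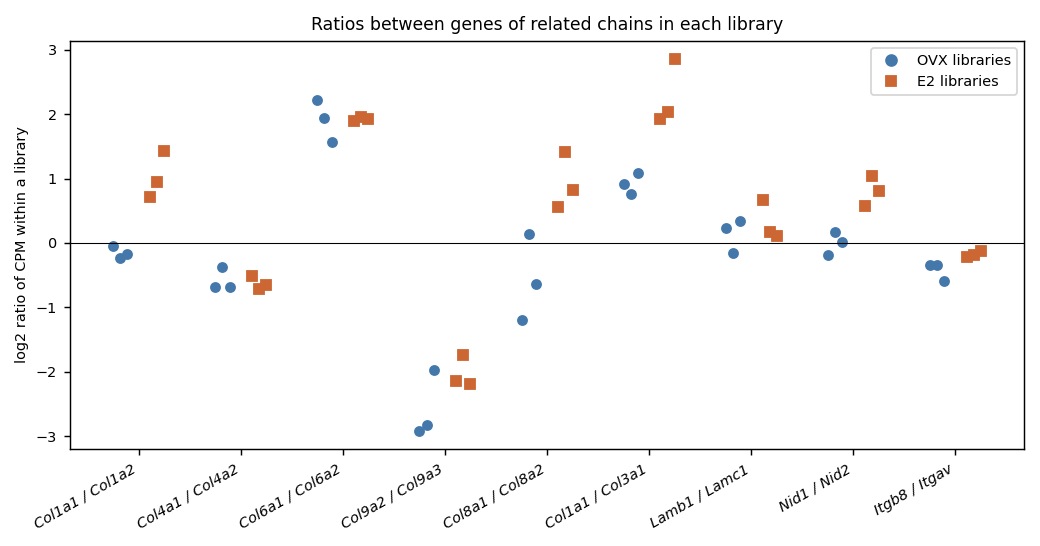
Log2 ratio of CPM between 2 genes of related chains (vertical axis), with 1 point per library, OVX as circles and E2 as squares. The *Col1a1* to *Col1a2* ratio is -0.24 to -0.05 in OVX and 0.72 to 1.43 in E2 libraries, while *Col4a1* to *Col4a2* lies between -0.71 and -0.37 in all 6.

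Taking the 41 listed collagens as a family, 28 differences were above 0 and 13 below, with a median of 0.19, beside 51.1% above 0 and a median of 0.00 for all genes. The split depended on single libraries, with 22 above 0 and a median of 0.03 without OVX replicate 3, and 26 and 0.05 without E2 replicate 1. At an unadjusted p under 0.05 there were 7 (17.1%), beside 8.56% of all genes. Each was higher with E2, as were 4.21% of all genes, and 4 of the 7 did not pass the adjusted threshold. *Col8a1* had 1.83, 2.94 and 1.85 log2 CPM in the OVX and 3.58, 2.95 and 3.02 in the E2 libraries. OVX replicate 2 lay just under the lowest E2 library. Its difference was 0.98 (SE 0.28, adjusted p = 0.279 by limma), and without OVX replicate 2 it was 1.34 (adjusted p = 0.023). That was its only call in 6 fits that each left out 1 library, where the adjusted p reached 0.728. In 11 other alternatives *Col8a1* was called in 0. *Col9a2*, a chain of a fibril-associated collagen, had 2.69, 2.74 and 2.68 against 3.33, 2.88 and 3.07 (difference 0.39, SE 0.18, adjusted p = 0.568), while its partner *Col9a3* lay between 4.61 and 5.60 in both groups. *Col19a1*, known for a role in synapse formation by interneurons, had 3.40, 3.06 and 3.31 against 3.5, 3.6 and 3.7 (difference 0.35, SE 0.15, adjusted p = 0.534). *Col11a1*, a minor fibril collagen, overlapped between groups (2.92 to 3.28 and 3.25 to 3.84; difference 0.42, SE 0.18, adjusted p = 0.525). With all 6 libraries, none of these 4 genes passed the adjusted threshold.

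For other collagens with the highest means of their families, levels were as follows. *Col6a1* was 6.63 ± 0.30 in OVX and 6.84 ± 0.17 in E2, *Col6a2* 4.72 ± 0.03 and 4.92 ± 0.18, *Col4a2* 6.34 ± 0.06 and 6.42 ± 0.17, and *Col4a1* 5.76 ± 0.18 and 5.80 ± 0.24 log2 CPM (SD, n = 3). *Col16a1*, a fibril-associated collagen, was 4.82 ± 0.33 and 5.0 ± 0.14. *Col11a2* and *Col27a1*, the fibrillar collagens with the highest means, were 4.66 ± 0.29 and 3.94 ± 0.28 in OVX, and 4.60 ± 0.18 and 4.03 ± 0.14 in E2.

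**Figure D5:**
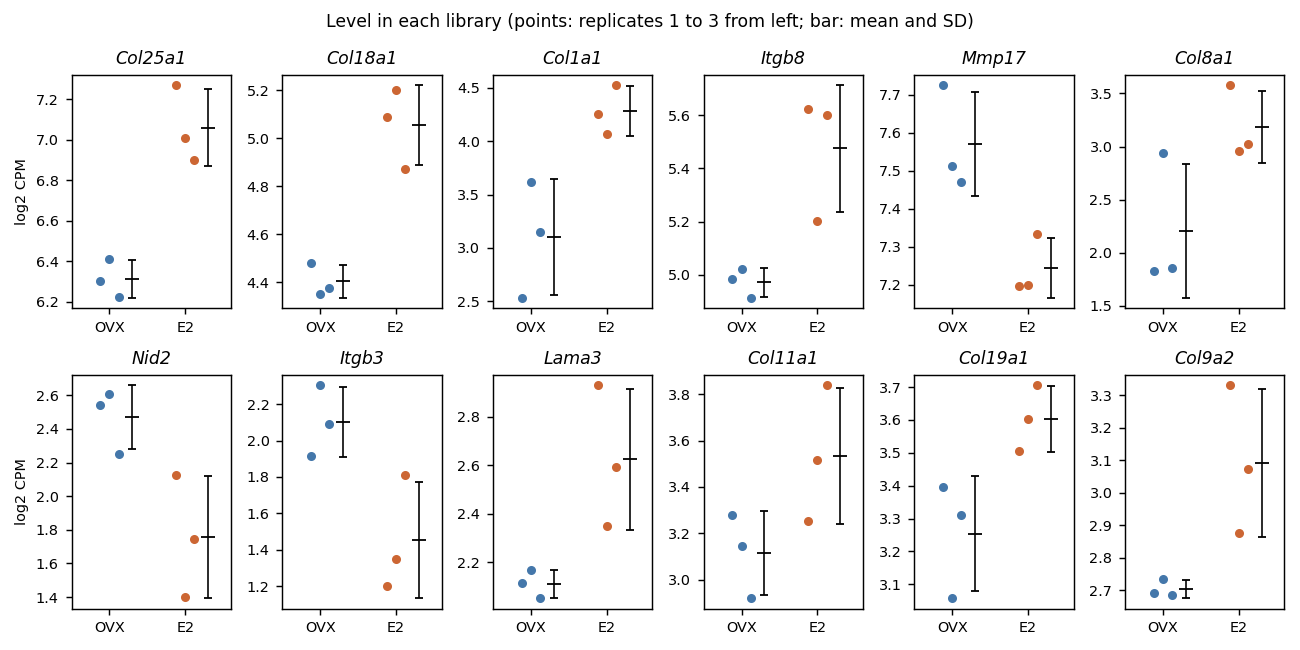
Log2 CPM in each library for the members named here with an unadjusted p under 0.05, each panel with its own vertical axis, replicates 1 to 3 from left in each group, and the mean and SD (n = 3) beside them. The libraries of the 2 groups overlap only for *Col11a1*, and 3 genes, *Col25a1*, *Col18a1* and *Col1a1*, passed the adjusted threshold.

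Of the 11 laminins, 0 passed the threshold, and the median difference was 0.04. *Lama3*, a chain of laminins of epithelial basement membranes, had 2.11, 2.17 and 2.05 log2 CPM in the OVX and 2.93, 2.35 and 2.59 in the E2 libraries (difference 0.51, SE 0.21, adjusted p = 0.521). The groups were apart, with E2 replicate 1 the highest. *Lamb3*, which encodes a beta chain of the same kind, overlapped, at 3.62 ± 0.17 in OVX and 3.71 ± 0.30 in E2 (SD, n = 3). The chains with the highest mean log2 CPM were *Lamb1* (5.23 ± 0.13 and 5.34 ± 0.25) and *Lamc1* (5.09 ± 0.21 and 5.02 ± 0.06). Per kilobase, *Lamb2* (2.56) stood above *Lamc1* (2.13). *Lamb1* and *Lamc1* are partners in most brain laminins, and their log2 ratio differed by 0.18 between groups, with overlap.

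The nidogens tie laminin to collagen IV. *Nid2* had 2.54, 2.61 and 2.25 in the OVX and 2.12, 1.4 and 1.75 log2 CPM in the E2 libraries (difference -0.71, SE 0.25, adjusted p = 0.404), the most negative difference of the 92. *Nid1* had 2.47 ± 0.27 and 2.56 ± 0.13 (SD, n = 3). The log2 ratio of *Nid1* to *Nid2* was -0.18 to 0.18 in OVX and 0.58 to 1.03 in E2 libraries, and its exact permutation p was 0.1 (0.18 adjusted).

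The fibrillins and fibulins, proteins of microfibrils and elastic fibres, had 0 of 6 past either threshold. *Fbln1* was 2.76 ± 0.33 and 2.62 ± 0.03, and *Fbn1* 2.67 ± 0.34 and 2.57 ± 0.19 log2 CPM in OVX and E2 (SD, n = 3). The members with the widest spread within groups were found here and among other low genes. *Fbln7* ran from -1.56 to 0.38, *Fbln5* from 0.33 to 2.78, *Thbs2* from 0.60 to 2.15, *Col4a3* from -0.29 to 1.63 and *Itga10* from 0.57 to 2.49.

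Among the 16 integrins, 6 differences were above 0 and 10 below, and 0 passed the adjusted threshold. *Itgb8* (ENSMUSG00000025321, chromosome 12, 119158022 to 119238802, minus strand) pairs with the alpha V subunit in a receptor known for activating latent TGF-beta. It had 4.98, 5.02 and 4.91 in the OVX and 5.62, 5.20 and 5.60 log2 CPM in the E2 libraries, which did not overlap (difference 0.50, SE 0.11, adjusted p = 0.094). Without E2 replicate 2, the lowest of its group, the difference was 0.64 and the adjusted p 0.013. That was its only call in 6 fits that each left out 1 library, where the adjusted p (limma) reached 0.338. In 11 other alternatives *Itgb8* was called in 0. *Itgav*, which the naming pattern does not take, had a difference of 0.25, and the log2 ratio of *Itgb8* to *Itgav* was -0.58 to -0.34 in OVX and -0.22 to -0.12 in E2 libraries.

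*Itgb3*, the beta subunit of platelet and vascular integrins, had 1.91, 2.30 and 2.09 in the OVX and 1.20, 1.35 and 1.81 in the E2 libraries (difference -0.65, SE 0.26, adjusted p = 0.502). *Itgb2*, the leukocyte beta subunit, was also lower in each E2 library, at 1.63 ± 0.18 and 1.01 ± 0.30 log2 CPM (SD, n = 3), and its unadjusted p was 0.057. *Itgb1* was 5.33 ± 0.30 and 5.43 ± 0.15. Of the 10 alpha subunits, *Itga3*, a laminin receptor subunit, was 4.87 ± 0.13 and 4.78 ± 0.21, and *Itga4* 4.16 ± 0.13 and 3.90 ± 0.34. *Itga6*, another laminin receptor subunit, had 3.21, 4.49 and 3.53 against 4.08, 4.18 and 4.18. OVX replicate 2 was its highest library, and the difference was 0.40 with all 6 libraries and 0.78 without it (adjusted p = 0.038 by limma). No other fit called *Itga6*.

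The 9 listed Mmp genes all had a lower mean with E2, also with median centring and quantile normalization, and 0 passed the adjusted threshold. With a library left out, 7 to 9 of the 9 remained below 0. Their differences ran from -0.33 to -0.06, with a median of -0.14, and 2 of the 9 did not overlap between groups, both lower, beside 6.82% of all genes lower without overlap and 51.1% of all genes with a difference above 0. *Mmp17* (ENSMUSG00000029436, chromosome 5, 129584169 to 129611099, plus strand) had 7.73, 7.51 and 7.47 log2 CPM in the OVX and 7.20, 7.20 and 7.33 in the E2 libraries. The groups were apart, with a difference of -0.33 (SE 0.07, adjusted p = 0.112 by limma), or 0.798-fold. *Mmp24* had 5.18, 5.20 and 5.22 against 5.16, 5.03 and 5.01, so that the groups were barely apart. The secreted gelatinases *Mmp2* and *Mmp9* were near 1.65 and 1.26, and overlapped.

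The 3 listed Timp genes had differences above 0, and 0 were called. With median centring, or without OVX replicate 2, E2 replicate 1 or E2 replicate 2, 1 of the 3 was below 0. *Timp2* was 9.74 ± 0.05 in OVX and 9.75 ± 0.09 in E2 log2 CPM (SD, n = 3), the smallest difference of the family at 0.01 (SE 0.06). *Timp3*, which binds to the matrix and is made by vessel wall and choroid plexus cells, was 6.10 ± 0.37 and 6.27 ± 0.22, and *Timp4* was 3.55 ± 0.07 and 3.83 ± 0.22. Of the 4 thrombospondins, *Thbs3* had 4.61, 4.49 and 4.46 against 4.68, 4.65 and 4.77, without overlap (unadjusted p = 0.087), and *Thbs1* was 2.46 ± 0.19 and 2.41 ± 0.21.

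Genes that act with these families were listed separately, as collagen-processing enzymes, other matrix proteins, proteoglycans, integrin partners and further proteases. Of 109, 94 were in the table. None passed the adjusted threshold (limma, 0 of 94), beside 0.288% of all genes. An unadjusted p under 0.05 was found for 12 of the 94, beside 8.56% of all genes. Of these, 7 were higher (4.21% of all genes) and 5 lower (4.34%). The highest were *Spock2*, which encodes a testican proteoglycan, and *Sparcl1*, which encodes a matricellular protein of astrocytes, with means of 10.48 and 9.64 log2 CPM. The gene nearest the threshold, *Tnr*, which encodes a protein of perineuronal nets and was named after its values were seen, had 7.72, 7.78 and 7.75 in the OVX and 8.02, 8.0 and 8.02 in the E2 libraries (difference 0.26, SE 0.05, adjusted p = 0.061 by limma). In the same list *Sparc*, a collagen-binding protein also chosen after its values were seen, had a difference of 0.31 with all libraries and 0.42 (adjusted p = 0.036) without OVX replicate 2.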

How the data were processed

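RNA from HA-tagged ribosomes of MeA *Kiss1* cells was sequenced in 3 OVX and 3 E2 libraries of KissRibo mice, each from 1 pool of 4 brains. The authors made unstranded poly(A) libraries. They processed reads with FastQC 0.11.8, Trimmomatic 0.38 and STAR 2.6.0a (versions from the submitters' processing notes) and RSEM on GRCm38 with Ensembl annotation. They describe keeping protein-coding genes with a mean CPM above 1 in at least 1 treatment group. The deposited log2 CPM values were made with TMM and voom. The authors' deposited table of comparisons (OVX minus E2 log2 fold changes, a statistic and p-values) was not used. No input RNA or Cre-negative IP library was analysed here, so enrichment in *Kiss1* cells was not measured.

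The log2 CPM of all 13886 genes were fitted with limma 3.58.1 in R 4.3.3, with treatment as the only term and a mean-variance trend in the empirical Bayes step. The threshold was a two-sided p under 0.05 after Benjamini-Hochberg adjustment over all genes. P-values measure the spread between pools, and an exact permutation test of 3 against 3 libraries cannot give a p below 0.1. Scaled library sizes were computed by reading the lowest log2 value per library as the 0.5 that voom gives a gene with no reads. The fit was tested on simulated data. Positions, lengths and overlaps came from GENCODE mouse release M21 (GRCm38). Members and lists were chosen with earlier results of these data known. Differences, SE and p are given for members past the threshold or with an unadjusted p under 0.05, and levels for the 2 highest members of each of 13 families, the partners of called chains and the 5 members with the largest spread. A result that this rule would name is not reported here. *Itgb2*, *Itga6* and the p of *Thbs3* are given beyond this rule, after their values were seen. Levels of other members, such as *Timp4*, *Lamb3*, *Mmp2*, *Mmp9*, *Col13a1* and *Col17a1*, are also given beyond it. Of the further matrix genes, those past the threshold and the 2 highest were named. Replicate numbers were not taken to pair libraries, since the deviations from the group means of libraries with the same number had correlations of -0.02, -0.12 and -0.08. Alternatives changed the trend, weights, scaling, filter, pseudocount (1 or 0.1), robust estimation, block and libraries.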

Additional observations from a re-analysis of the deposited data

How the results depend on the processing

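The 3 calls rested on modelling the variance by level. In the fit with no mean-variance trend, 0 members were called (0 higher), 0 of all genes were called and 1017 genes had an unadjusted p under 0.05; the adjusted p was 0.318 for *Col25a1*, 0.329 for *Col18a1* and 0.551 for *Col1a1*. With robust empirical Bayes, 2 members were called, and *Col1a1* was not (adjusted p = 0.151). In the other 9 alternatives with all libraries, among them voom weights, scaling, filters and pseudocounts, the same 3 were called. These include the replicate block (3 calls), although the numbers do not pair the libraries. Leaving out 1 library gave 1 to 5 calls, all higher: 5 without OVX replicate 2 (adding *Col8a1* and *Itga6*) and 1 without OVX replicate 3 or E2 replicate 1. *Col25a1* was called in 6 of these 6 fits, *Col18a1* in 3 and *Col1a1* in 1. Members without overlap numbered 19 to 28 with a library left out, against 16, since fewer libraries overlap less often. Of the further matrix genes, 1 was called with quantile normalization (*Tnr*, adjusted p = 0.049), 1 with robust empirical Bayes (*Tnr*, 0.048), and 0 or 1 with a library left out (*Sparc*, without OVX replicate 2). By the median in place of the longest transcript length, 7 of the 10 highest members remained among the 10 highest. Of members with an unadjusted p under 0.05, none changed sign in these alternatives. *Timp2*, at 0.01, was not followed singly.

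With a median SE of 0.22 and 3 pools per group, low members are limited by their spread, and the absence of a call does not show that a gene did not change. The groups differ without overlap in the summed markers of erythroid cells and in the sum of the genes listed for kisspeptin neurons. The sum of the genes listed for excitatory neurons of other forebrain areas also did not overlap, and no batch is labelled.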

Other observations

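Markers of further cell types were summed per library. Oligodendrocyte markers gave 1594 to 2243 CPM in OVX and 1742 to 2461 CPM in E2 libraries, oligodendrocyte precursor markers 162 to 198 and 182 to 234 CPM, and microglial markers 128 to 159 and 123 to 144 CPM. In the same order, 7 of 8, 5 of 6 and 2 of 8 of the markers had a higher mean with E2. The genes listed for kisspeptin neurons summed to 568 to 648 CPM in OVX and 669 to 779 CPM in E2 libraries, so that the groups did not overlap. Of these genes, *Kiss1* (the model ENSMUSG00000115958) was called higher and *Esr1* lower with E2, and *Cck* was 8.97 ± 0.10 in OVX and 9.20 ± 0.12 log2 CPM in E2 (SD, n = 3). The sum also holds a second *Kiss1* model (ENSMUSG00000116158), at -5.82 to 0.10 in OVX and 2.65 to 3.18 log2 CPM in E2 libraries. That model did not pass the threshold (adjusted p = 0.094 by limma).

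By library, E2 replicate 2 and OVX replicate 3 were each the highest library for 6 of the 92 matrix genes, and the lowest for 23 and 28 of them. OVX replicate 2 was the lowest for 4 of the 92, beside 15.1% of all genes.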
